A study of Mus musculus with 4 samples.

Results

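The 10 genes described are grouped here as secreted inflammatory and senescence factors of fibroblasts. They are the chemokines Ccl2, Ccl7, Ccl9, Cxcl1, Cxcl5, Cxcl10 and Cxcl12, the cytokines Il6 and Csf1, and Ptgs2. Ptgs2 is the enzyme cyclooxygenase-2, which makes the precursor of prostaglandins, and it is the prostaglandins that are released. All probe sets annotated with exactly 1 of these symbols were taken, which gave 16 probe sets for 10 genes, of 12393 genes with such a probe set on the array. RNA came from mouse embryonic fibroblasts (MEFs) that had received a pBabePuro retrovirus, and it was measured on 4 Affymetrix MOE430A arrays. The 2 control samples had received the empty vector and the 2 mTert samples a vector with Tert, the reverse transcriptase subunit of telomerase. Both groups therefore went through viral infection. The titles number the samples 1 and 2 within each group, but the labels do not say what the numbers stand for, the strain or age of the embryos, the passage of the cells or whether samples of a group were separate cultures. The p-values therefore reflect the spread among these 4 samples alone, and that spread may be technical.

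Fibroblasts release chemokines, cytokines and prostaglandins when they meet inflammatory signals or enter senescence, and the senescent form of this output is called the senescence-associated secretory phenotype. Many of its genes are switched on by NF-kB, a transcription factor held in the cytoplasm by inhibitors such as Nfkbia until a signal such as interleukin-1, tumour necrosis factor or a microbial product releases it. CC chemokines such as Ccl2 attract monocytes, CXC chemokines such as Cxcl1 and Cxcl5 attract neutrophils, Cxcl10 is induced by interferons, and Csf1 keeps macrophages alive.

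Signals are in arbitrary units on a linear scale, and differences are given as log2 with their standard errors (SE) from limma. A probe set was tested if called present on at least 2 of the 4 arrays. Of the probe sets that are not controls, between 51.6% and 54.4% were called present on an array. Control 1 was recorded with 5 µg of labelled cRNA, the other arrays with 15 µg. Tert was called absent in control 1 and control 2, at 128 and 84.7. It was present in mTert 1 and mTert 2, at 1165 and 845, as the labels say. Limma did not call this difference of 3.25 between mTert and control (limma adjusted p 0.188). A missing call therefore does not show that a gene was unchanged. The 11 fibroblast markers on the array, among them Col1a1, Vim and Pdgfra, were all present on every array, with summed signals from 87665 to 94294. Markers of macrophages separated the numbers. Their 20 probe sets, 1 per gene, summed to 4606 on control 1 and 5289 on mTert 1 but to 22325 on control 2 and 23260 on mTert 2. All 20 were higher on both arrays numbered 2, with a median difference of 2.15. Limma called 16 of the 17 tested ones higher there at an adjusted p under 0.05. Of these, Cd14, C1qa, C1qc, Fcgr3, Tyrobp and Mpeg1 were present only on the arrays numbered 2. They were thus tested through the side where they were high, so the count of 16 is not used as support. C1qa, a complement component of macrophages, read 39.8 (absent) on each array numbered 1 and 1189 and 1395 (present) on control 2 and mTert 2, at least 32.4-fold more. For each of the 20 the mTert and control arrays overlapped, and none read 0 on any array. Thy1, a fibroblast surface marker, was the only one of its list called between the numbers, lower at -0.68. Summed signals of lymphocyte markers lay between 428 and 508, of endothelial markers between 460 and 776 and of epithelial markers between 576 and 711. In RNA from whole cultures, fewer cells of a type and less RNA per cell cannot be told apart.

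Promoter sequences from RefSeq (build GRCm38.p6), 250 bases before to 50 after the gene start, matched 7 members and were not matched for Ccl2, Ccl7 and Cxcl5. The 4 shown belong to Cxcl1, Csf1 and Cxcl10, which read higher on both arrays numbered 2 in the comparison described further on, and to Ptgs2, which did not. They were chosen after these values were seen. The Cxcl1 promoter is chr5:90890995-90891294 on the plus strand, that of Csf1 chr3:107760420-107760719 on the minus strand, that of Cxcl10 chr5:92348840-92349139 on the minus strand, and that of Ptgs2 chr1:150099781-150100080 on the plus strand. Each is written 5′ to 3′ along its gene. Capitals mark matches to the NF-kB motif (GGGA, any 4 bases, then CC) on either strand in the first 3, and in Ptgs2 the core ACGTCA of the cyclic AMP response element.
Cxcl1: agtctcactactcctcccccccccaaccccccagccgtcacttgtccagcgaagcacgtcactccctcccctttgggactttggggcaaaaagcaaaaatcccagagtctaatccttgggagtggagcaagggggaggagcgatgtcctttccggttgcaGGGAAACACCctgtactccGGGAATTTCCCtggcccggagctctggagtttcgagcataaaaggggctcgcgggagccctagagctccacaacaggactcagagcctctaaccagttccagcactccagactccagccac
Csf1: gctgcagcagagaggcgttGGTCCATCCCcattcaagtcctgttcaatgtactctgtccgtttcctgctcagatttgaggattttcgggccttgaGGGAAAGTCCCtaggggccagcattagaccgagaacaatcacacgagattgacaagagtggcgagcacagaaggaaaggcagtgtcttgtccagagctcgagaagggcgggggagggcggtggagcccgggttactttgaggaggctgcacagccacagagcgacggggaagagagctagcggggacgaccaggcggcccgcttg
Cxcl10: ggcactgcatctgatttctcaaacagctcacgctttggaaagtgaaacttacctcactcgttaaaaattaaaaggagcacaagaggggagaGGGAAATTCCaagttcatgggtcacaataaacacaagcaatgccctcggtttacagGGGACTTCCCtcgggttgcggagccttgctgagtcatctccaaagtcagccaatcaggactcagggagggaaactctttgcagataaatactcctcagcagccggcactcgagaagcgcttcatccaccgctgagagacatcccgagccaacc
Ptgs2: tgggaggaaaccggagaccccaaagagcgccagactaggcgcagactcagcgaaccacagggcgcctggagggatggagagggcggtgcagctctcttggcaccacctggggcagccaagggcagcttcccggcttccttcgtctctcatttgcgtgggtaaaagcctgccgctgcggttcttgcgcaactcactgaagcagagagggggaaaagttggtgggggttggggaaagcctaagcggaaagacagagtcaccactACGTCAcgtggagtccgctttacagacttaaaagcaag

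The NF-kB motif was found in 4 of the 7 promoters, those of Cxcl1, Csf1, Cxcl10 and Il6, and in 20.7% of all 32851 promoters in the table. It was not found in Ptgs2, nor in Ccl9 and Cxcl12, whose brighter probe sets also read higher on both arrays numbered 2. Il6, whose promoter holds it, read lower on both, but it was called absent on all 4 arrays. Cxcl10 was called present only on mTert 2. Whether the motif goes with the difference between the numbers was not tested. In Cxcl1 its matches began 90 and 71 bases before the gene start, the second match overlapping one on the other strand that is shifted by 1 base. In Csf1 they began 231 and 155 bases before the start, the latter again with an overlapping match on the other strand. In Cxcl10 they began 159 and 103 bases before the start, the latter window matching the motif on both strands. In Il6 a match began 44 bases before the start, likewise with an overlapping one on the other strand. The interferon response motif (GAAA, any 2 bases, then GAAA), present in 3.44% of promoters, was found among these 7 only in Cxcl10, where it began 213 bases before the start. All motifs were searched on both strands. The AP-1 motif TGANTCA, held by 7.81% of promoters, was found in Ccl9, Cxcl10 and Il6. ACGTCA, held by 7.51%, was found in Cxcl1, Il6 and Ptgs2. These matches overlapped no match of another motif searched. They describe the letters of these windows and are not measured binding sites.

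Of the 10 members, 7 were read by at least 1 probe set called present on all 4 arrays: Ccl2, Ccl7, Cxcl1, Cxcl5, Cxcl12, Ptgs2 and Csf1. Ccl9 was present only on the arrays numbered 2, Cxcl10 only on mTert 2, and Il6 on none. Of the 16 probe sets 12 were present on all arrays and 13 were tested, for 8 genes. The probe set of Cxcl10, that of Il6 and the dimmer one of Ccl9 were present on fewer than 2 arrays and were not tested. Ccl9 passed through the arrays on which it was high, so no count over tested members is used as support.

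**Figure D1:**
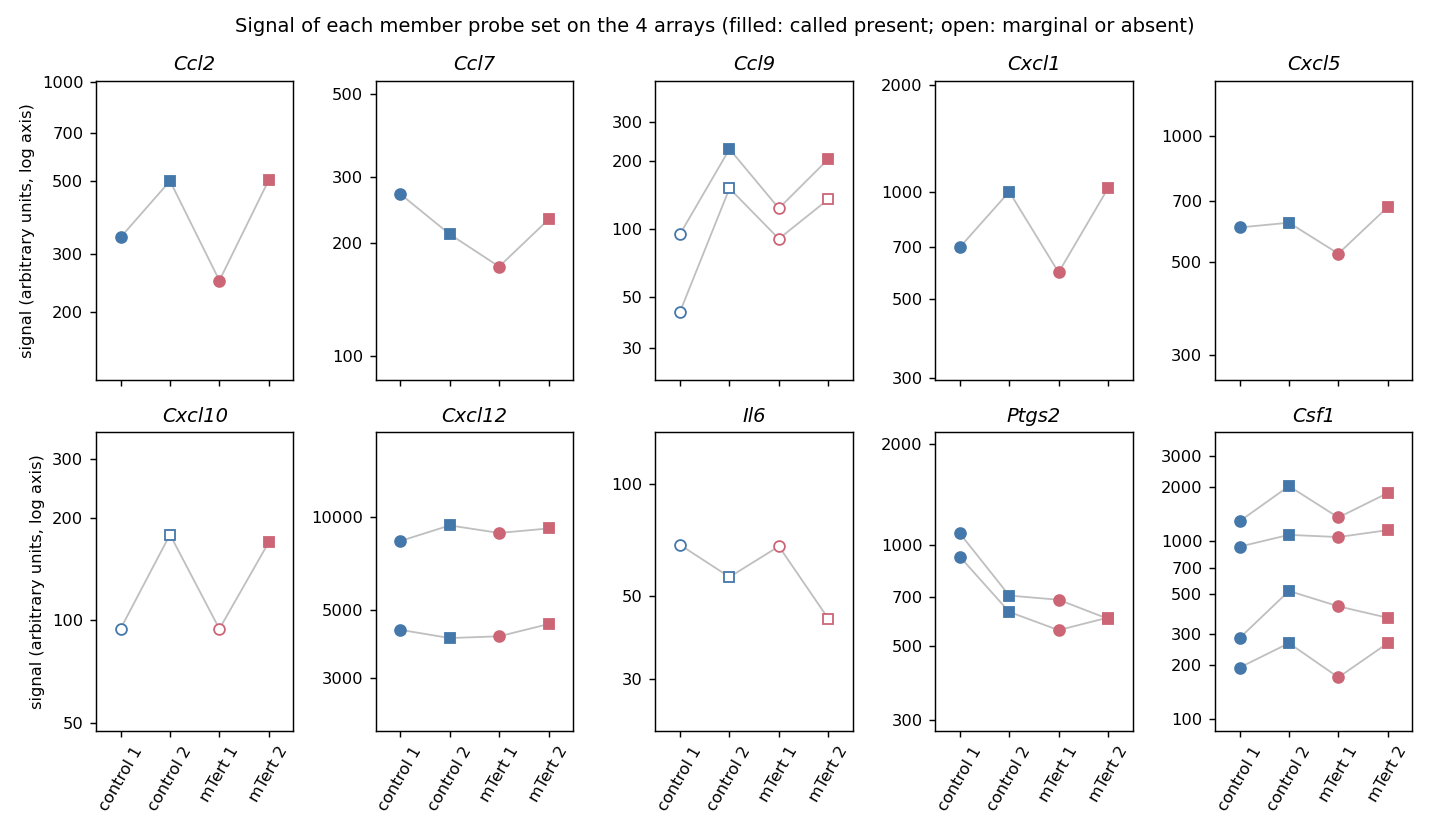
Signal of each of the 16 member probe sets (log axis, arbitrary units) on control 1, control 2, mTert 1 and mTert 2, with circles for arrays numbered 1, squares for arrays numbered 2, blue for control and red for mTert. Filled symbols were called present, open ones marginal or absent, and grey lines join the values of 1 probe set; Ccl2, Cxcl1 and Cxcl10 sit high on both arrays numbered 2, while Cxcl12 lies between 8350 and 9380 on its brighter probe set.

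The first comparison, mTert against control, asked whether fibroblasts with added telomerase subunit differ in these genes. No member passed. Limma called 0 of the 12396 tested probe sets higher and 0 lower, 0% in each direction, at an adjusted p under 0.05 with no replicate term, and 261 probe sets, 2.11%, had an unadjusted p under 0.05. Among the 13 tested member probe sets 0 had such a p. Of all 16 member probe sets 6 were higher and 10 lower in sign, and the median difference of the 7 genes present on all arrays, at their brightest probe set, was -0.10, beside 0.005 over the 6545 genes present on all arrays. The mTert arrays lay entirely above the controls for 0 member probe sets and entirely below for 2, and these counts were the same among the 13 tested ones. Over all tested probe sets these shares were 13.4% and 12.1%. The limma adjusted p of each tested member probe set rounded to 1.00. This fit has no term for the numbers 1 and 2. Where arrays of different number differ, its SE and intervals hold that difference too.

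Both probe sets that did not overlap belonged to Ptgs2, which makes the prostaglandin precursor from arachidonic acid and is a fast-induced inflammatory gene. The brighter probe set read 1081 and 705 in control 1 and 2, and 685 and 601 in mTert 1 and 2. Control 1 stood apart on the high side, and control 2 exceeded mTert 1 by little. The difference was -0.44 (SE 0.22, 95% interval -0.98 to 0.10, limma adjusted p 1.00, unadjusted 0.0908), or 1.36-fold lower in mTert. The second probe set read 921, 630, 556 and 606 in the same order and gave -0.39 (SE 0.20). Within the arrays numbered 1 the brighter probe set differed by -0.66 and within those numbered 2 by -0.23. For the second probe set these were -0.73 and -0.06, so most of the difference lay between control 1 and mTert 1. Without control 1, the array with less cRNA, the brighter probe set differed by -0.14, and the fits that leave out 1 of the other arrays gave -0.75 to -0.35.

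Among the CC chemokines, Ccl2 is the main attractant of monocytes and is read by 1 probe set. Its signals were 337 and 500 in control 1 and 2, and 249 and 503 in mTert 1 and 2. The arrays numbered 2 were high in both groups and the groups overlapped, with a difference of -0.21 (SE 0.36, 95% interval -1.10 to 0.67). Ccl7, a monocyte attractant whose gene follows Ccl2 directly in the RefSeq order of chromosome 11, read 270, 211, 173 and 231 in the same order. Its difference was -0.25 (SE 0.23, interval -0.83 to 0.32), with -0.64 within number 1 and 0.13 within number 2. Ccl9, a ligand of Ccr1 in mice, read 95.5 and 227 in the controls and 124 and 205 in mTert on its brighter probe set, a difference of 0.11 (SE 0.46, interval -1.0 to 1.23).

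Among the CXC chemokines, Cxcl1, a neutrophil attractant, read 699 and 1001 in control 1 and 2, and 594 and 1024 in mTert 1 and 2. Again the numbers and not the groups separated the arrays, and mTert differed from control by -0.10 (SE 0.29, interval -0.82 to 0.62). Cxcl5, another ligand of Cxcr2, read 604, 620, 523 and 676, a difference of -0.04 (SE 0.17, interval -0.45 to 0.37). Cxcl12, the ligand of Cxcr4 that stromal cells release without induction, read 8350, 9380, 8867 and 9169 on the brighter probe set and 4306, 4049, 4103 and 4494 on the other. Its differences were 0.03 (SE 0.08) and 0.04 (SE 0.09), and the interval of the brighter one, -0.17 to 0.23, was the narrowest of the 8 genes. Cxcl10, which was not tested, read 94.5, 179, 94.4 and 170, or 137 ± 59.8 (SD, n = 2) in control and 132 ± 53.3 (SD, n = 2) in mTert.

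Of the cytokines, Il6, the interleukin that defines much of the secretory phenotype in human senescent fibroblasts, was called absent on all 4 arrays, at 68.5, 56.2, 67.9 and 43.5. No fold is given, as it was not above background in either group. Csf1, the macrophage growth factor, has 4 probe sets, all present on every array. The brightest read 1284 and 2021 in control 1 and 2, and 1348 and 1849 in mTert 1 and 2, and mTert differed from control by -0.03 (SE 0.25, interval -0.64 to 0.58). The other 3 stood at 0.13 (SE 0.13), 0.05 (SE 0.30) and -0.09 (SE 0.28).

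The second comparison set the arrays numbered 2 against those numbered 1, each side holding 1 control and 1 mTert array. Here several members separated. Limma called 131 of the 12396 tested probe sets higher (1.06%) and 61 lower (0.492%) on the arrays numbered 2 at an adjusted p under 0.05. These 192 calls became 91 without control 2 and 80 without mTert 2. Of the 13 tested member probe sets it called 1 higher, for Csf1, and 0 lower. Of all 16 member probe sets 13 were higher in sign, 10 had both arrays numbered 2 above both numbered 1, and 1, that of Il6, had both below. These include the untested probe sets of Cxcl10 and Il6 and the dimmer one of Ccl9. Of the 13 tested ones, 8 had both above and 0 had both below. Over all tested probe sets 20.3% lay entirely above and 19.4% entirely below. Of the 7 genes present on all arrays, 5 lay entirely above and 0 entirely below, beside 1416 and 1215 of the 6545 such genes. The median difference of these 7 genes was 0.20, beside 0.007 over the 6545. With Ccl9, which was tested only through its present calls on the arrays numbered 2, the median of the 8 tested genes is 0.38. An unadjusted limma p under 0.05 was found for 5 of the 13 tested member probe sets, among them that of Ccl9, and for 10.5% of all tested ones. An exact permutation test of 2 against 2 arrays cannot give a two-sided p under 0.333.

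**Figure D2:**
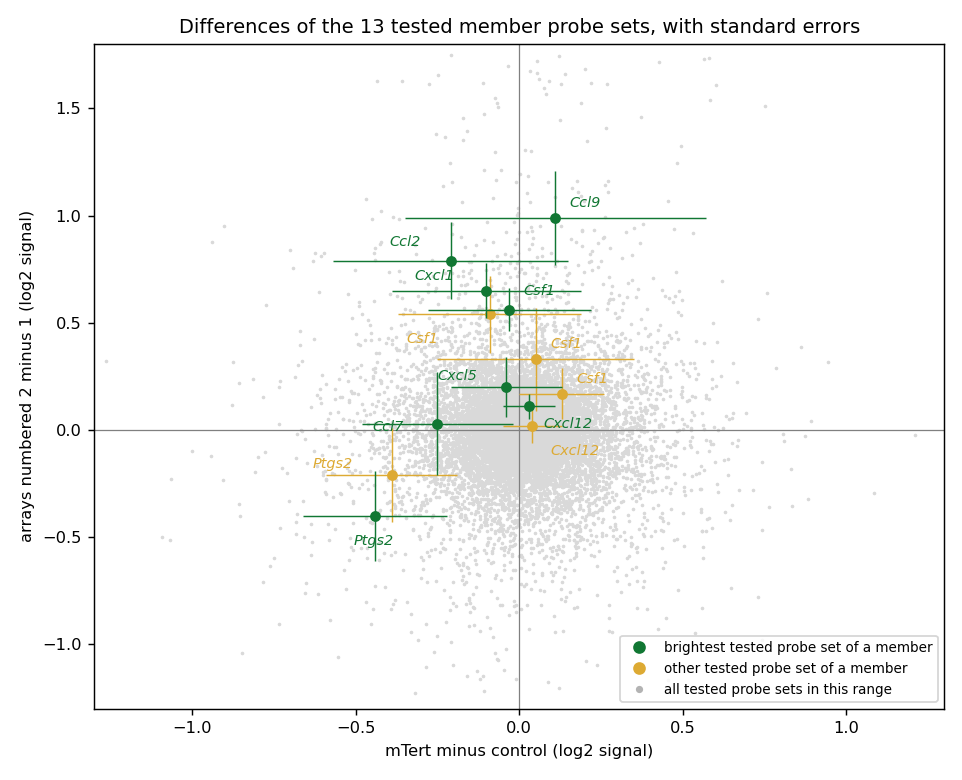
Difference between mTert and control (x axis) and between arrays numbered 2 and 1 (y axis), both in log2 signal, for the 13 tested member probe sets, with limma standard errors as bars and all tested probe sets within the axes as grey points. Ccl9, Ccl2, Cxcl1 and the brightest Csf1 probe set lie between 0.56 and 0.99 on the y axis with x values from -0.21 to 0.11, and Ptgs2 is the member farthest to the left.

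Csf1 was the only member called in the fit on the numbers alone; with the group added as a term Ccl2, Cxcl1 and Ccl9 were called too, as given with each. On its brightest probe set the arrays numbered 1 read 1284 (control) and 1348 (mTert), and those numbered 2 read 2021 and 1849, with no overlap. The difference was 0.56 (SE 0.10, 95% interval 0.32 to 0.79, limma adjusted p 0.0403), or 1.47-fold. The difference was 0.65 within control and 0.46 within mTert, whose arrays had the same amount of cRNA. The call did not hold when any 1 array was left out: the limma adjusted p was 0.0997 without control 1, 0.233 without control 2, 0.0571 without mTert 1 and 0.11 without mTert 2, with differences from 0.49 to 0.62. It also ended with no filter on present calls (limma adjusted p 0.0841), on probe sets present on all arrays (0.0521) and on the mean of the gene's 4 probe sets, at 0.40 (0.202). The other probe sets gave 0.54 (SE 0.18), 0.33 (SE 0.24) and 0.17 (SE 0.12). Of these, the one at 0.33 disagreed between the groups, reading 284 and 522 in control 1 and 2 but 428 and 369 in mTert 1 and 2.

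Cxcl1, Ccl2 and Ccl9 missed the threshold by less than other members. Cxcl1 read 699 and 594 on control 1 and mTert 1 and 1001 and 1024 on control 2 and mTert 2. The sides were far apart relative to their spread, at 646 ± 74.6 (SD, n = 2) and 1012 ± 16.4 (SD, n = 2). The difference was 0.65 (SE 0.13, interval 0.36 to 0.95, limma adjusted p 0.0562), with 0.52 within control and 0.79 within mTert. Without control 1 it was 0.77 and passed (limma adjusted p 0.0319), and without mTert 2 it was 0.64 (0.236). With the group as a term it passed (limma adjusted p 0.0263).

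Ccl2 read 337 and 249 on the arrays numbered 1 and 500 and 503 on those numbered 2. The last values were nearly equal in control and mTert. The difference was 0.79 (SE 0.18, interval 0.38 to 1.20, limma adjusted p 0.0875), or 1.73-fold. It was 0.57 within control and 1.01 within mTert, and without control 1 the fit gave 1.01 and passed (limma adjusted p 0.0221). Without mTert 1 it gave 0.57 (0.239), and with the group as a term Ccl2 passed (0.0312). Ccl7, its neighbour, stood at 0.03 (SE 0.24, interval -0.52 to 0.57), with -0.36 within control and 0.41 within mTert. Whether Ccl2 and Ccl7 differ from each other was not tested.

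Ccl9 was absent at 95.5 and 124 on the arrays numbered 1 and present at 227 and 205 on those numbered 2. As it was not above background on the former, its difference of 0.99 (SE 0.22, limma adjusted p 0.0863) stands for at least 1.98-fold. With the group as a term its limma adjusted p was 0.0487, and with no filter on present calls, which does not favour probe sets high on 1 side, it was 0.267. Its second probe set, which was not tested, read 43.3 and 90.9 against 152 and 136, with no present call. Cxcl10, with 1 probe set, read 94.5 and 94.4 (both absent) on the arrays numbered 1 and 179 (marginal) and 170 (present) on control 2 and mTert 2. This stands for at least 1.85-fold, with 1 of the arrays numbered 2 called present. In the fit with no filter on present calls its difference was 0.88 (SE 0.25, limma adjusted p 0.315).

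The remaining members did not pass, although the arrays numbered 2 lay above those numbered 1 for Cxcl5 and the brighter Cxcl12 probe set. Cxcl5 stood at 0.20 (SE 0.14, interval -0.11 to 0.52) and the probe sets of Cxcl12 at 0.11 (SE 0.06) and 0.02 (SE 0.08). Ptgs2 lay on the other side, at -0.40 (SE 0.21, interval -0.88 to 0.08) and -0.21 (SE 0.22), and its value depended on control 1: within control the brighter probe set differed by -0.62 and within mTert by -0.19. Il6 had both arrays numbered 2 below those numbered 1, but it was called absent on all 4 arrays.

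**Figure D3:**
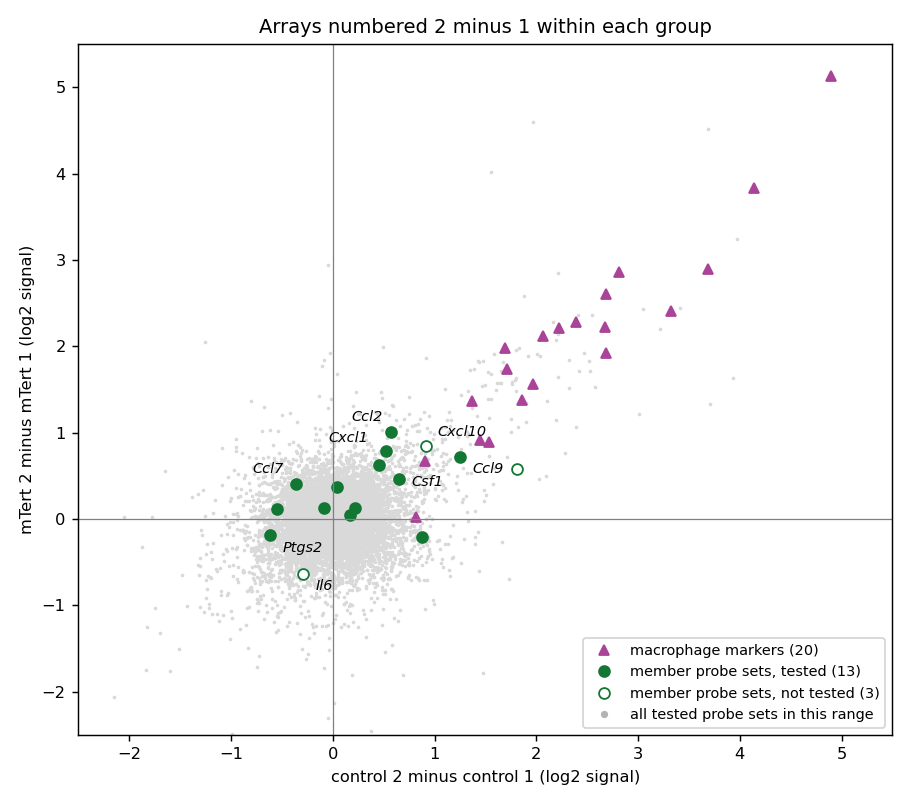
Difference between arrays numbered 2 and 1 within control (x axis) and within mTert (y axis), in log2 signal, for the member probe sets (green, open where not tested), the 20 macrophage markers (purple triangles) and all tested probe sets in the range (grey). Ccl2, Cxcl1, Cxcl10, Ccl9 and the labelled Csf1 probe set lie in the upper right, at smaller values than most macrophage markers.

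Macrophage markers and interferon genes moved with the numbers in the same direction as Csf1, Cxcl1, Ccl2, Ccl9 and Cxcl10, as given above for the 20 macrophage markers. Macrophages can express several of these factors, and the part of these markers in the members' differences was not tested. Csf1r, the receptor of Csf1 and a macrophage marker, read 671 and 691 on control 1 and mTert 1 and 2192 and 2293 on control 2 and mTert 2. It rose by 1.72 (SE 0.10, limma adjusted p 2.2e-04). In the list of interferon-responsive genes all 15 tested genes were higher in sign on the arrays numbered 2, with a median of 0.64. For 13 of them the arrays did not overlap, beside 20.3% of all tested probe sets that lay entirely above. Ifih1 was absent on control 1 and mTert 1, at 273 and 202, and present on control 2 and mTert 2, at 348 and 275. It was tested only through the side where it was high, so these counts are not used as support. Limma called Ifit1, Ifit3, Oasl2 and Usp18 higher and 0 lower. Ifit1, an antiviral RNA-binding protein, read 287 and 307 against 879 and 915, a difference of 1.60 (SE 0.13, limma adjusted p 0.0011). Usp18, which removes the ubiquitin-like modifier Isg15, stood at 1.64 (SE 0.16) and Oasl2 at 1.70 (SE 0.16). The part of this list in the difference of Cxcl10 was not tested either. In mTert against control 10 of the 15 were higher in sign, 0 were called and the median was 0.077, the smallest p being those of Irf7 at 0.36 (SE 0.19), Ifih1 at -0.39 (SE 0.23) and Rsad2 at 0.49 (SE 0.35).

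The other chemokine ligands held 10 tested genes of 29 listed. On the arrays numbered 2 limma called 2 of the 10 higher and 0 lower. Cxcl2, a neutrophil attractant whose gene follows Cxcl1 in the RefSeq order of chromosome 5, read 396 and 348 on control 1 and mTert 1 and 2106 and 1786 on control 2 and mTert 2. This was a rise of 2.38 (SE 0.14, limma adjusted p 2.2e-04). Pf4, a chemokine of platelets and myeloid cells, rose by 1.44 (SE 0.20, limma adjusted p 0.0113). Cx3cl1, the membrane-bound fractalkine, lay on the other side at -0.70 (SE 0.13, limma adjusted p 0.0504). The list median was 0.21. In the mTert comparison 0 of the 10 were called, with a median of 0.036. The smallest p belonged to Cxcl13 at 0.40 (SE 0.20), Ppbp at 0.60 (SE 0.30) and Cxcl16 at 0.53 (SE 0.41). Cxcl13 was absent in both controls, so its difference stands for at least 1.32-fold, and it was tested only through its present calls in mTert.

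Of the members' receptors 7 of 19 listed were tested. All 7 were higher in sign on the arrays numbered 2, with a median of 0.19, and Csf1r alone was called. Cxcr4, the receptor of Cxcl12, read 84.9 and 70.1 on control 1 and mTert 1 and 179 and 130 on control 2 and mTert 2, a difference of 0.98 (SE 0.26, limma adjusted p 0.16). Ackr3, a scavenging receptor of Cxcl12, stood at 0.26 (SE 0.12). In mTert the receptors had a median of 0.068 with 0 calls. Il6st, the shared signalling receptor of the interleukin-6 family, stood at 0.17 (SE 0.13), Ackr3 at -0.17 (SE 0.15) and Cxcr4 at -0.37 (SE 0.46).

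Genes of the NF-kB pathway itself were not called in either comparison, over 18 tested of 37 listed. On the arrays numbered 2 the median was 0.083, with 11 higher and 7 lower in sign. Nfkbia, the inhibitor that NF-kB itself induces, read 6552 and 5227 on control 1 and mTert 1 and 7938 and 7965 on control 2 and mTert 2, a difference of 0.44 (SE 0.10, limma adjusted p 0.095). Tirap, a toll-like receptor adaptor, stood at -0.42 (SE 0.15) and Tnfrsf1b, a receptor of tumour necrosis factor, at -0.45 (SE 0.16). In mTert against control the median was 0.031. Nfkbiz, an inducible nuclear cofactor of NF-kB at genes such as Il6, read 1462 and 1816 in control and 878 and 1270 in mTert. Its groups did not overlap, and its difference was -0.63 (SE 0.21, limma adjusted p 1.00, unadjusted 0.0223). Ikbkg stood at 0.30 (SE 0.19) and Tnip1 at 0.18 (SE 0.17).

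Signalling genes of the interleukin-6 family, 11 tested of 18 listed, were not called either, with medians of -0.070 for mTert against control and 0.044 for number 2 against number 1. Lif, a secreted cytokine of this family, was present on the arrays numbered 1, at 160 in control 1 and 161 in mTert 1. It was absent on those numbered 2, at 90.6 and 79.4. The difference was -0.92 (SE 0.23, limma adjusted p 0.117), or at least 1.90-fold more on the arrays numbered 1. As Lif was tested only through its present calls there, this value is not used as support. Its receptor Lifr stood at -0.74 (SE 0.25) and Cebpb, a factor that acts with NF-kB at many cytokine genes, at 0.26 (SE 0.10). Between mTert and control the smallest p belonged to Jak1 at 0.16 (SE 0.09), Lifr at -0.53 (SE 0.35) and Socs3 at -0.20 (SE 0.14).

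The prostaglandin pathway had 7 tested genes of 20 listed besides Ptgs2, and 0 were called in either comparison. Pla2g4a, which frees the arachidonic acid that Ptgs2 uses and whose gene precedes Ptgs2 in the RefSeq order of chromosome 1, stood at 0.25 (SE 0.20) in mTert, where Ptgs2 stood at -0.44. Ptgfr stood at -0.16 (SE 0.19) and Ptgr1 at 0.10 (SE 0.14). The medians were 0.10 for mTert against control and 0.062 between the numbers. Hpgd, which inactivates prostaglandins, read 264 and 224 on control 1 and mTert 1 and 396 and 558 on control 2 and mTert 2, a difference of 0.95 (SE 0.20, limma adjusted p 0.0724). Slco2a1, a prostaglandin transporter, stood at 0.33 (SE 0.21) and Ptger4, a receptor of prostaglandin E2, at 0.19 (SE 0.16).

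Other secreted factors of senescent cells, 21 tested of 36 listed, had a median of -0.090 in mTert with 0 calls. Hbegf, an epidermal growth factor receptor ligand, stood at -0.86 (SE 0.20), Timp1, a protease inhibitor, at 0.41 (SE 0.12), and Ereg at -0.43 (SE 0.22). Between the numbers the median was -0.002, and limma called 1 gene higher, Cxcl2, and 1 lower, Igfbp2. The latter, a binding protein of insulin-like growth factors, read 5911 and 5005 on control 1 and mTert 1 and 3575 and 3399 on control 2 and mTert 2, so that it fell by 0.64 (SE 0.09, limma adjusted p 0.0156). The secreted factors thus lay on both sides between the numbers.

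**Figure D4:**
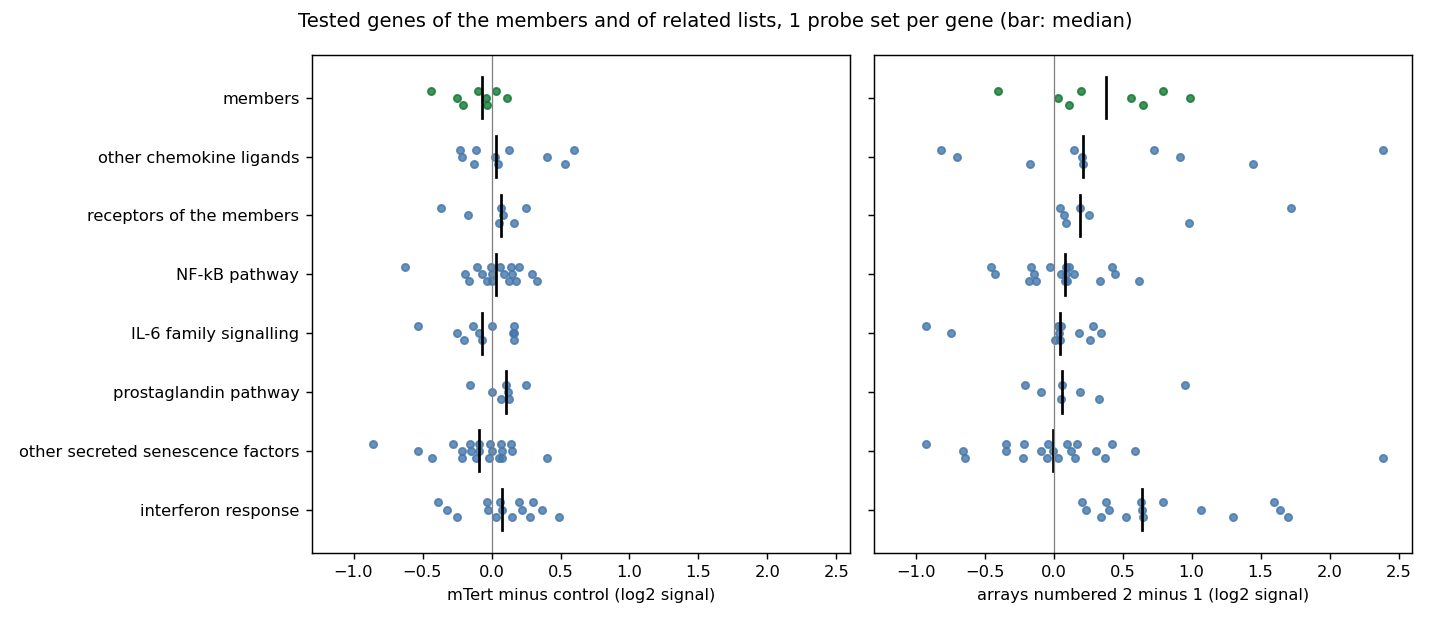
Log2 differences of tested genes, 1 probe set per gene, for the members (green) and 7 related lists (blue), between mTert and control (left) and between arrays numbered 2 and 1 (right); black bars are medians. On the left the medians run from -0.090 to 0.10, and on the right the interferon list has the highest, 0.64. The members' bar there, 0.38, is 0.20 without Ccl9, beside 0.21 for the other chemokine ligands and 0.19 for the receptors, whose lists were not trimmed in this way.

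The members did not share 1 pattern over the 4 arrays. Their mean profile, over the 8 tested genes and in log2 relative to each gene's own mean, stood at -0.08 and 0.20 for control 1 and 2 and at -0.29 and 0.17 for mTert 1 and 2. Cxcl5 lay nearest to it, at a Euclidean distance of 0.20, and Ptgs2 farthest, at 0.84. Of 11408 other tested probe sets with 1 symbol, those nearest to the mean profile belonged to Ddx39a (0.013), Adamts1 (0.029), Slc23a2 (0.036), Dnmt1 (0.039) and Lima1 (0.039). With 4 arrays such closeness is a description only.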

How the data were processed

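Per the file headers, the authors' tables give each probe set a linear intensity, a present, marginal or absent call and a detection p-value. Which software made them is not stated by the labels. Their series table was identical (largest difference 0). The instrument records gave the chip type and amount of cRNA. Trimmed means (2% off each end) already lay between 498.593 and 498.779; signals were scaled to a common one and taken to log2, and the 1 signal at 0 was set to its array's lowest present signal. Without the 64 control probe sets and those present on fewer than 2 arrays, 12396 remained. By GEO's annotation of the platform, 20380 had a single symbol, 691 several and 1555 none before that filter. Samples were grouped and numbered by title. Each comparison was fitted with limma 3.58.1 in R 4.3.3 (lmFit; eBayes trended on intensity; prior degrees of freedom 4.13 for mTert against control and 6.05 for number 2 against 1), with Benjamini-Hochberg adjustment over all tested probe sets and a threshold of 0.05. A gene is represented by its brightest tested probe set. A fold described as "at least" sets the mean log2 signal against, per dim array, the higher of its own and the lowest present signal. Named genes are all members, Tert, the 3 genes of each list with the smallest p in each comparison, and the 5 nearest profiles. Other genes named in the lists, as the only calls of a count or as markers, were chosen after their values were seen. Members and lists were chosen with earlier results of these data known. On simulated data of 12396 probe sets with planted changes, the mTert fit called 43.3% of log2 changes of 1 and 90.9% of changes of 2. The simulated noise was independent between arrays, with no difference between the numbers, so these rates may overstate what was detectable here. Tert, at a difference of 3.25, was not called in the data. Alternatives were quantile normalization, no scaling, offsets of 16 and 64, other filters, no trend, a replicate block, gene means and leaving out each array. With 4 arrays, precision is limited by their number.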

Additional observations from a re-analysis of the deposited data

How the results depend on the processing

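Calls were not counted on gene means. Between mTert and control, 0 probe sets were called under each other alternative except the replicate block. With this block limma called 18 (3 higher, 15 lower), none of them a member. The smallest member values with this block were an unadjusted limma p of 0.0136 and a limma adjusted p of 0.947 for Ptgs2. With 1 array left out the count stayed at 0. Arrays of the same number deviated together (Pearson's r of 0.373 over probe sets, which are no replicates), but with 2 pairs the numbers are not taken to pair the samples. Between the numbers 192 probe sets were called; there were 347 with the group as a term (the same replicate block fit), 94 with no filter on present calls, 119 on probe sets present on all arrays, 80 with no intensity trend, and between 80 (without mTert 2; 91 without control 2) and 204 with 1 array left out. With the group as a term Ccl2, Ccl9, Cxcl1 and Csf1 passed (limma adjusted p 0.0312, 0.0487, 0.0263 and 0.0205), and Cxcl1 also passed on gene means (0.0324). With no filter on present calls Ccl9, Ccl2 and Cxcl1 stood at 0.267, 0.221 and 0.124. The member differences between mTert and control reversed in sign with 1 array left out for Ccl2 (-0.72 to 0.29), Ccl9 (-0.51 to 0.74), Cxcl1 (-0.49 to 0.29), Cxcl5 (-0.23 to 0.14), Cxcl12 (-0.06 to 0.11) and Csf1 (-0.36 to 0.30), and for Csf1 also on the mean of its probe sets (0.01). Such fits leave the numbers unequal between the groups and so hold part of the difference between numbers. Ptgs2 and Ccl7 kept their sign there. Between the numbers only Ccl7 reversed (-0.29 to 0.35 with 1 array left out). No other member difference reversed under the alternatives run.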
